A study of Homo sapiens with 6 samples.

Results

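The guides described here aim a Cas9 knockout library at the machinery that unwinds DNA, coats it and loads the polymerase clamp at a replication fork. They were chosen by gene symbol alone, as every guide of Mcm2 to Mcm7, Gins1 to Gins4, Rpa1 to Rpa4 and Rfc1 to Rfc5. Of these 19 symbols 12 are in the library, namely Mcm2, Mcm3, Mcm4, Mcm5, Mcm6, Mcm7, Gins2, Gins4, Rpa1, Rpa2, Rpa3 and Rfc1, each with 4 guides. That makes 48 guides of the 1887 in the library, 24 for Mcm2-7, 8 for Gins, 12 for Rpa and 4 for Rfc. The symbols are written as mouse symbols although the cells are human.

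The replicative helicase of eukaryotes is a ring of the MCM2 to MCM7 proteins that becomes active when CDC45 and the GINS complex bind to it, and it travels ahead of the polymerases. The strands it separates are covered by replication protein A (RPA), a trimer of RPA1, RPA2 and RPA3, which protects single-stranded DNA and brings in repair and checkpoint proteins. RFC1 is the large subunit of replication factor C, which opens the sliding clamp PCNA and places it on DNA. All of these complexes are needed for DNA replication in dividing human cells, and RPA also marks the single-stranded DNA that forms when breaks are processed.

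Each construct in the screen carried 2 guides, one at each of 2 positions, so that 1 cell could lose 2 genes. The cells were eHAP iCas9-cl#6, a single clone of eHAP, itself made from the near-haploid human leukaemia line HAP1; it carries doxycycline-inducible Cas9 and is p53 null in every group. The growth text, which is the same for all samples, gives 7 days of doxycycline before further passaging without it, and does not place day 0 relative to that induction. Irradiated cells were collected at day 15 after 10 population doublings, with 0.6 Gy of X-rays given 24 hours after each split. Unirradiated cells were collected at day 14 after 12 doublings of standard growth, and the starting population at day 0. The design text calls the radiation dose LD30 and the treatment text LD20. Each group had 2 libraries, and the labels do not say whether they came from separate cultures, so p-values measure the spread between libraries, which may be technical.

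Guides 1 and 2 of a gene (sg1, sg2) sit at position 1 of the construct and guides 3 and 4 (sg3, sg4) at position 2. Guide sequences and the places they cut were not used here. By symbol, the genes lie on several human chromosomes in GRCh38.p14: GINS2 at 85676198 to 85688954 of chromosome 16, MCM3 at 52264015 to 52284742 of chromosome 6, MCM6 at 135839626 to 135876443 of chromosome 2, RPA1 at 1830005 to 1900082 of chromosome 17, RPA2 at 27891524 to 27914797 of chromosome 1, RPA3 at 7636518 to 7718607 of chromosome 7 and RFC1 at 39287456 to 39366362 of chromosome 4. All are protein-coding. The counts record which constructs the cells carried. They hold no measure of cutting or of protein.

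The 6 libraries held 61185707 to 86587125 reads, of which 3128439 to 4683246 came from constructs with a member guide. Of the 42399 such constructs, 49.7% had no reads in irradiated replicate 2 and 54.4% in day 14 replicate 1, against 2.95% to 8.96% in the other 4 libraries. A tested guide is summed over 889 to 939 constructs, and its level is given library by library below. Day 0 replicate 1 stood apart in another way, at position 2 only. There, 28.5% of all 927 tested guides were lower by more than 0.5 on the log2 scale than in day 0 replicate 2, and 0.217% of the 922 tested guides at position 1. All 15 tested Mcm2-7 and Gins guides at position 2 were higher in day 0 replicate 1, by 0.12 to 0.37 with a median of 0.25. Across all 927 guides the median difference was -0.0028 and the highest 0.38. The 6 tested Rpa and Rfc guides at position 2 ran from -0.59 to 0.0032, with a median of -0.07. The cause of this split was not tested. The main differences from day 0 are therefore given with and without that library.

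Of the 48 guides, 45 had a mean of at least 2000 reads and entered the test. The other 3 were all at position 2. Rpa3_sg4 had 0 and 2 reads in irradiated cells, 0 and 0 at day 14 and 0 and 0 at day 0, so that Rpa3 was in effect covered by 3 guides. Rfc1_sg4 had 71 and 97 reads in irradiated cells, 92 and 159 at day 14 and 150 and 136 at day 0. Mcm5_sg3 had 580 and 1003 reads in irradiated cells, 775 and 588 at day 14 and 770 and 631 at day 0. The most abundant member guide, Mcm3_sg3, had 345788 and 404540 reads in irradiated cells, 297159 and 302325 at day 14 and 563739 and 447766 at day 0. Member guides thus ranged in abundance from absent to the 99.8th percentile of their position at day 0.

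The first question was whether guides against the fork machinery were lost or gained during growth with irradiation. Between irradiated and day 0 cells most of them stayed close to their starting level: 41 of the 45 tested guides lay within 0.25 of no change on the log2 scale, the median was -0.04, and the extremes were -0.50 (Gins2_sg3) and 0.38 (Rpa3_sg3). Among them 30 were lower and 15 higher in irradiated cells. Both irradiated libraries lay below both day 0 libraries for 11 of 45 guides (24.4%), against 18.3% of all 1849 tested guides, and above both for 6 (13.3%), against 18.2% of all. edgeR's quasi-likelihood test with Benjamini-Hochberg adjustment called 0 of the 45 guides, and 0% of all guides. At an unadjusted p under 0.05 there were 3 of 45, against 3.08% of all 1849. DESeq2 called 2 of 45, Gins2_sg3 and Rpa2_sg3, against 1.46% of all.

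The comparison of day 14 with day 0 cells asks the same of standard growth, and it shares the day 0 libraries. The 45 guides split into 24 lower and 21 higher, their median change was -0.02, and the extremes were -0.45 (Rpa2_sg3) and 0.28 (Rpa3_sg3). Again 41 lay within 0.25 of no change. Both day 14 libraries lay below both day 0 libraries for 11 guides, against 21.5% of all, and above both for 10, against 19.5% of all. The edgeR test called 0 guides (0% of all), with 4 of 45 at an unadjusted p under 0.05 against 4.27% of all. DESeq2 called the same 2 guides as in the irradiated comparison, against 1.3% of all.

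Between irradiated and day 14 cells, the comparison that sets radiation against standard growth, 44 of 45 guides lay within 0.25 of no change. The exception was Rpa1_sg2 at 0.41, and the median was -0.03. Both irradiated libraries lay below both day 14 libraries for 7 guides (15.6%), against 15.8% of all, and above both for 4, against 15.1% of all. The edgeR test called 0 of 45 (0% of all), with 1 at an unadjusted p under 0.05 against 4.49% of all, and DESeq2 called 0 of 45 against 1.19% of all.

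The helicase guides stood differently against day 0 at the 2 positions. At position 2, 14 of the 15 Mcm2-7 and Gins guides were lower in irradiated than in day 0 cells, with a median log2 change of -0.13. At day 14 it was 14 of 15, with a median of -0.15. Of all 927 tested guides at position 2, 475 and 456 were lower, with medians of -0.0070 and 0.0020. At position 1, 9 of the 16 guides of the same genes were lower in irradiated cells, with a median of -0.0028. At day 14 it was 5 of 16, with a median of 0.04, where 468 and 474 of all 922 tested guides were lower. Without day 0 replicate 1, the counts at position 2 were 8 of 15 in irradiated cells (median -0.0018) and 9 of 15 at day 14 (median -0.02). Without day 0 replicate 2, they were 15 of 15 in both comparisons, with medians of -0.26 and -0.25. Of all 1849 tested guides of both positions, 918 and 959 were lower without day 0 replicate 1, in irradiated and day 14 cells. Without day 0 replicate 2 it was 933 and 939. Restricted to constructs with reads in all 6 libraries, day 0 replicate 1 included, 7 of 15 were lower in irradiated cells (median 0.00027) and 7 of 15 at day 14 (median 0.05), and at position 1 it was 9 of 16 in both comparisons, with medians of -0.04 and -0.04. The lower level of the helicase guides at position 2 was thus not seen without day 0 replicate 1. The constructs read in every library cannot decide this, since the restriction removes those that had no reads in a later library. Under it, 813 of all 1829 tested guides were lower in irradiated against day 0 cells (median 0.035). At day 14 against day 0 it was 807 (median 0.042). In day 0 replicate 1 the Mcm2-7 guides at position 2 took 1.60% of all reads, against 1.25% in day 0 replicate 2, 1.21% and 1.22% in the irradiated libraries and 1.22% and 1.21% at day 14. At position 1 they took 1.44% and 1.41% of reads in irradiated cells, 1.44% and 1.49% at day 14 and 1.44% and 1.45% at day 0.

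Leaving out day 0 replicate 2 also raised the number of calls across the library. The day 0 group is then 1 library, which is assumed to vary like the libraries of the other groups. In that fit edgeR called 4 of the 45 member guides in irradiated against day 0 cells, namely Gins2_sg3, Mcm3_sg3, Mcm5_sg4 and Rpa3_sg3, against 16.8% of all guides. It called 5 at day 14, the same 4 and Mcm2_sg3, against 16.9% of all.

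For the MCM ring, gene sums add the guides of a gene over both positions and all partners of other genes, in CPM (read counts scaled to library size with edgeR's TMM factors). Mcm3, a subunit of the ring, stood at 4310 and 4319 in irradiated cells, 4421 and 4417 at day 14 and 5242 and 4509 at day 0. Both irradiated and both day 14 libraries lay below both day 0 libraries, with day 0 replicate 1 highest. Of all 459 genes, 18.3% lay below both day 0 libraries in irradiated cells and 20.3% at day 14. The log2 change was -0.18 in irradiated against day 0 cells (SE 0.07, edgeR quasi-likelihood test, adjusted p = 0.625) and -0.14 at day 14 (SE 0.07, adjusted p = 0.552). Without day 0 replicate 1 these were -0.06 and -0.03.

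Among the guides of Mcm3 the difference lay mainly in 1. Mcm3_sg3 stood at 4859 and 4746 CPM, scaled within its position, in irradiated cells, 4874 and 4980.2 at day 14 and 6314 and 5238 at day 0. Its log2 change was -0.27 in irradiated against day 0 cells (SE 0.09, edgeR adjusted p = 0.789) and -0.23 at day 14 (SE 0.09, adjusted p = 0.646), or -0.12 and -0.09 without day 0 replicate 1. Restricted to constructs with reads in all 6 libraries it was -0.61 and -0.63. Its groups did not overlap, but the gap between the day 0 libraries was larger than the gap from the lower of them to the irradiated ones. The other Mcm3 guides, sg1, sg2 and sg4, lay at -0.05, -0.01 and -0.05 in irradiated against day 0 cells.

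The other subunits of the ring differed from day 0 by no more than 0.10 on the log2 scale of gene sums. Mcm6 stood at 1208 and 1279 in irradiated cells, 1284 and 1227 at day 14 and 1426 and 1238 at day 0, with changes of -0.10 (SE 0.08) and -0.09 (SE 0.08), which were 0.01 and 0.02 without day 0 replicate 1 and -0.20 and -0.18 without day 0 replicate 2. Its irradiated and day 14 libraries overlapped with day 0 replicate 2. Mcm2, Mcm4 and Mcm5 were at -0.04, -0.07 and -0.08 in irradiated against day 0 cells and at -0.06, -0.10 and -0.02 at day 14, and each of these turned its sign under at least 1 alternative except Mcm5 in irradiated cells. Mcm7, another subunit, stood at 2224 and 2302 in irradiated cells, 2301 and 2304 at day 14 and 2274 and 2219 at day 0, with changes of 0.01 (SE 0.04) and 0.04 (SE 0.04). The 95% interval of its irradiated change ran from -0.09 to 0.11.

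Single MCM guides moved little between irradiated and day 14 cells. The 23 tested ones ran from -0.15 (Mcm6_sg1) to 0.14 (Mcm2_sg3), 16 lower and 7 higher. Mcm5_sg2 had the smallest p of them, with levels of 1932 and 1839 in irradiated cells, 1986 and 2038 at day 14 and 1955 and 1962 at day 0, and a log2 change of -0.09 (SE 0.05, edgeR adjusted p = 1.00) between irradiated and day 14 cells. The other tested Mcm5 guides, sg1 and sg4, were at -0.05 and -0.03. Mcm4_sg2 followed at 0.13 (SE 0.08), with 798 and 783 in irradiated cells and 669 and 772 at day 14. Both irradiated libraries of Mcm4_sg2 lay above both day 14 libraries, yet the gap between the day 14 libraries was larger than the gap from the higher of them to the irradiated ones. Without day 14 replicate 1 the change was 0.03, and the other Mcm4 guides, sg1, sg3 and sg4, were at -0.04, -0.04 and 0.08.

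A further pair of MCM guides were among those of smallest p against day 0. Mcm5_sg4 stood at 1362 and 1302 in irradiated cells, 1360.2 and 1359 at day 14 and 1658 and 1378 at day 0. Its change was -0.19 (SE 0.09) in irradiated against day 0 cells, and -0.05 without day 0 replicate 1. The other tested guides of the gene, Mcm5_sg1 and Mcm5_sg2, lay at 0.01 and -0.05. Mcm7_sg1 stood at 1494 and 1465 at day 14 and 1395 and 1379 at day 0, a change of 0.09 (SE 0.05, edgeR adjusted p = 0.646) in which the groups did not overlap. It was -0.06 in the constructs with reads in all 6 libraries. The other Mcm7 guides, sg2, sg3 and sg4, were at 0.05, -0.12 and 0.03 at day 14 against day 0.

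Gins2 and Gins4 encode subunits of the GINS complex that locks the helicase into its active form. Gins2 stood at 1699.8 and 1741 CPM in irradiated cells, 1685 and 1736 at day 14 and 1971 and 1814 at day 0. All irradiated and day 14 libraries lay below both day 0 libraries, which held for 18.3% of all 459 genes in irradiated cells and 20.3% at day 14. The log2 change was -0.14 in irradiated against day 0 cells (SE 0.06, edgeR adjusted p = 0.625) and -0.15 at day 14 (SE 0.06, adjusted p = 0.552), and -0.08 in both comparisons without day 0 replicate 1. Gins4 stood at 1845 and 1758 in irradiated cells, 1797 and 1816 at day 14 and 1878 and 1808 at day 0, with changes of -0.03 (SE 0.05) in both comparisons.

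Gins2_sg3 was the member guide with the largest difference between irradiated and day 0 cells. It had 45559 and 60154 reads in irradiated cells, 43246 and 42418 at day 14 and 92467 and 74739 at day 0. Scaled, these were 640.1 and 706 CPM in irradiated cells, 709 and 699 at day 14 and 1036 and 874 at day 0. The 4 later libraries lay close together and well below both day 0 libraries. The change was -0.50 in irradiated against day 0 cells (SE 0.10, 95% interval -0.76 to -0.25, edgeR adjusted p = 0.386) and -0.44 at day 14 (SE 0.10, interval -0.69 to -0.19, adjusted p = 0.646).

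Unlike the helicase guides as a group, Gins2_sg3 kept most of this difference without day 0 replicate 1, at -0.38 in irradiated and -0.32 at day 14. Leaving out the incomplete irradiated replicate 2 gave -0.57, and leaving out the incomplete day 14 replicate 1 gave -0.45 at day 14. DESeq2 called it in both comparisons, with adjusted p of 0.00241 and 0.0264. The difference was spread over partners: of 813 partner guides with at least 20 reads in both day 0 libraries, 66.9% had a lower scaled count in irradiated replicate 1 than in either day 0 library, where the median guide at position 2 had 46.1% and the 95th percentile was 56.6%. In day 14 replicate 2 the share was 61.9%, against a median of 41.4% and a 95th percentile of 52.0%. Partners of 1 guide share that guide and its library, so they are no replicates.

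The other guides of Gins2 did not show a difference of that size. Gins2_sg4, also at position 2, stood at 923 and 946 in irradiated cells, 1009.8 and 932 at day 14 and 1132 and 951 at day 0, a change of -0.16 (SE 0.10) in irradiated cells and -0.02 without day 0 replicate 1. Gins2_sg1 was at -0.08 (SE 0.17) and Gins2_sg2 at 0.09 (SE 0.06) in irradiated against day 0 cells. The 4 guides of Gins2 thus spanned 0.60 on the log2 scale, the widest range of the 12 genes in that comparison, where the median gene spanned 0.22. The gene sum of Gins2 from position 1 guides alone was at 0.05 in irradiated and -0.01 in day 14 cells, and from position 2 guides alone at -0.31 and -0.25.

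The remaining Gins guides named by small p were Gins4_sg2 and Gins2_sg2. Gins4_sg2 stood at 976 and 917 in irradiated cells, 1030.0 and 984 at day 14 and 913 and 961 at day 0, with changes of 0.10 (SE 0.07) at day 14 against day 0 and -0.09 (SE 0.07) in irradiated against day 14 cells. Both day 14 libraries were above both day 0 libraries and both irradiated ones were below both day 14 ones. The other Gins4 guides lay between -0.15 and -0.01 at day 14 against day 0. Gins2_sg2 was at 0.05 (SE 0.06) in irradiated against day 14 cells.

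RPA1 carries the main DNA-binding domains of the trimer, RPA2 the tail that checkpoint kinases phosphorylate, and RPA3 is its smallest subunit. Gene sums of all 3 lay within 0.10 of day 0 on the log2 scale when all constructs were counted. Rpa1 stood at 3644 and 3685 in irradiated cells, 3606 and 3546 at day 14 and 3649.7 and 3625 at day 0, with changes of 0.01 (SE 0.03) and -0.02 (SE 0.03). The 95% interval of its irradiated change ran from -0.07 to 0.09, the narrowest of the 12 genes. Rpa2 was at -0.05 (SE 0.05) and -0.03 (SE 0.05), and at 0.24 and 0.28 in the constructs with reads in all 6 libraries. Rpa3 stood at 1951 and 2029 in irradiated cells, 1872 and 1918 at day 14 and 1802 and 1953 at day 0, with changes of 0.08 (SE 0.06) and 0.01 (SE 0.06). From its position 2 guide alone these were 0.38 and 0.29, and in the constructs with reads in all 6 libraries -0.03 and -0.11. Its irradiated libraries overlapped with those of day 0.

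Rpa2_sg3 was the other guide that DESeq2 called against day 0. It had 16285 and 18654 reads in irradiated cells, 14605 and 12939 at day 14 and 27639 and 26403 at day 0. Scaled, these were 229 and 219 CPM in irradiated cells, 239.6 and 213 at day 14 and 309.6 and 308.9 at day 0. The day 0 libraries lay close together and all 4 later libraries lay below them. The change was -0.47 in irradiated against day 0 cells (SE 0.10, 95% interval -0.71 to -0.22, edgeR adjusted p = 0.389, DESeq2 adjusted p = 0.000583) and -0.45 at day 14 (SE 0.10, interval -0.70 to -0.20, edgeR adjusted p = 0.646, DESeq2 adjusted p = 0.00193).

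Leaving out either day 0 library gave -0.46 for Rpa2_sg3 in irradiated cells and -0.45 at day 14. Of its 329 partners with at least 20 reads at day 0, 64.1% were below both day 0 libraries in irradiated replicate 1 and 68.4% in day 14 replicate 2. The guide is of low abundance, above only 10.2% of the guides of its position at day 0, with reads in 187 of its 909 constructs in irradiated replicate 2 and 147 in day 14 replicate 1. Restricted to constructs with reads in all 6 libraries, its change was 0.15 in irradiated and 0.31 in day 14 cells, the opposite sign. The other guides of Rpa2, sg1, sg2 and sg4, lay at -0.04, 0.02 and 0.01 in irradiated cells and at -0.13, 0.09 and 0.16 at day 14.

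Rpa3_sg3 had the highest change of the members against day 0, and that value rested on 1 library. It stood at 363 and 412 in irradiated cells, 368 and 358.4 at day 14 and 238 and 358.4 at day 0, so that day 0 replicate 1 was low and day 0 replicate 2 lay among the later libraries. The change was 0.38 in irradiated against day 0 cells (SE 0.20, edgeR adjusted p = 0.789), 0.11 without day 0 replicate 1 and 0.71 without day 0 replicate 2. Rpa3_sg1, at position 1, was at 0.09 (SE 0.06) and Rpa3_sg2 at -0.11 (SE 0.08) in the same comparison. Against day 14, Rpa3_sg1 stood at 0.08 (SE 0.06) in irradiated cells.

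Rpa1_sg2 had the largest difference of the members between irradiated and day 14 cells. It stood at 525 and 449 in irradiated cells, 441 and 293 at day 14 and 484 and 477 at day 0, with day 14 replicate 2 below all other libraries. The change was 0.41 in irradiated against day 14 cells (SE 0.20, edgeR adjusted p = 1.00) and -0.39 at day 14 against day 0 (SE 0.20, adjusted p = 0.646). Without day 14 replicate 2 these were 0.14 and -0.13, and without day 14 replicate 1 they were 0.74 and -0.72. In day 14 replicate 2, 72.7% of its 498 partners lay below both day 0 libraries. The median guide at position 1 had 40.7% there, and the 95th percentile was 50.9%. This share comes from the same library as the low level. In irradiated replicate 1 the share was 45.0%, against a median of 45.1%. The other Rpa1 guides lay between -0.05 and 0.03 in irradiated against day 14 cells.

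Of the symbols Rfc1 to Rfc5, Rfc1 alone is in the library. It stood at 2512 and 2556 CPM in irradiated cells, 2839 and 2608 at day 14 and 2488 and 2567 at day 0. Both day 14 libraries lay above all others. The log2 change was 0.11 (SE 0.05) at day 14 against day 0, -0.10 (SE 0.05) in irradiated against day 14 cells (edgeR adjusted p = 0.995) and 0.0035 in irradiated against day 0 cells, and none passed the test. Without day 14 replicate 1 the first 2 were 0.05 and -0.04, and in the constructs with reads in all 6 libraries the first was -0.05.

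Its guide Rfc1_sg1 followed the same order, with 2565 and 2603 in irradiated cells, 2934 and 2822 at day 14 and 2628 and 2614 at day 0. The day 14 libraries lay above all others and differed from each other by less than from any of them. The change was -0.16 in irradiated against day 14 cells (SE 0.04, edgeR adjusted p = 0.986, DESeq2 adjusted p = 0.0534) and 0.14 at day 14 against day 0 (SE 0.04, adjusted p = 0.646). Restricted to constructs with reads in all 6 libraries it was -0.11 and -0.14, so that the second value turned its sign. Rfc1_sg2 and Rfc1_sg3 were at 0.13 (SE 0.10) and 0.04 (SE 0.08) at day 14 against day 0 and at -0.04 and -0.06 in irradiated against day 14 cells.

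At the level of genes, edgeR called 0 of the 12 members in each of the 3 comparisons and 0% of all 459 genes. Irradiated cells stood lower than day 0 for 8 of 12, the median being -0.05 against -0.0031 for all genes, and 1 (Mcm3) had an unadjusted p under 0.05, against 3.92% of all. At day 14, 9 of 12 were lower, the median being -0.03 against 0.0067, and 1 (Gins2) had an unadjusted p under 0.05, again against 3.92% of all. Against day 14, irradiated cells stood lower for 7 of 12, the median being -0.0090 against 0.0028, and 0 had an unadjusted p under 0.05, against 2.61% of all. DESeq2 called 0 of the 12, against 0.436% of all genes in each comparison with day 0 and 0.218% in irradiated against day 14 cells. Scaled to constructs with 2 non-targeting guides, 9 of 12 were lower in irradiated against day 0 cells, 4 of 12 at day 14 and 12 of 12 in irradiated against day 14 cells, where 249, 97 and 426 of all 459 genes were. Without day 0 replicate 2, which leaves 1 day 0 library assumed to vary like the other groups, edgeR called Gins2, Mcm3 and Mcm6 in irradiated against day 0 cells, where it called 33.6% of all genes, and these 3 with Mcm4 at day 14, where it called 35.7%.

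Constructs that pair a member guide with a non-targeting guide give the single knockouts. The 12 genes had 96 to 122 such constructs each, and their summed reads were scaled to the constructs whose guides are both non-targeting. edgeR called 0 of 12 members and 0% of all 459 genes in each comparison, and DESeq2 likewise called 0 of 12 and 0% of all. Irradiated cells stood lower than day 0 for 9 of 12, the median being -0.09 against 0.01 for all genes, and 1 (Mcm3) had an unadjusted p under 0.05, against 2.61% of all. At day 14 against day 0, 5 of 12 were lower, the median being 0.05 against 0.06, and 0 had an unadjusted p under 0.05, against 3.92% of all. Irradiated cells stood lower than day 14 for 11 of 12, the median being -0.15 against -0.08, where 295 of all 459 genes were lower, and 1 (Mcm6) had an unadjusted p under 0.05, against 2.83% of all. Without both incomplete libraries it was 5 of 12, the median being 0.02, with 251 of all 459 lower, and without irradiated replicate 2 it was 7 of 12. With TMM scaling it was 10 of 12, the median being -0.09, with 243 of all 459 lower.

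Mcm6 was the lowest member after irradiation in these constructs. It had 2720 and 3899 reads in irradiated cells, 4224 and 2994 at day 14 and 5407 and 4675 at day 0, which came to 2778 and 3439 scaled reads in irradiated cells, 5716 and 3599 at day 14 and 4773 and 3950.5 at day 0. Both irradiated libraries lay below all 4 others. The change was -0.49 against day 0 (SE 0.25, edgeR adjusted p = 0.974) and -0.58 against day 14 (SE 0.25, 95% interval -1.10 to -0.06, edgeR adjusted p = 0.965). Without the incomplete day 14 replicate 1 the second value was -0.21, without day 14 replicate 2 it was -0.88, and without both incomplete libraries it was -0.37, with -0.65 against day 0. The deeper gene sum of Mcm6 did not show this difference from day 14, at -0.01 (SE 0.08), and it took the other sign under 4 alternatives. Constructs with both guides against Mcm6 were at 1.63 (SE 1.04) in irradiated against day 14 cells. Gins2 lay next to Mcm6 in irradiated against day 0 cells, at -0.49 (SE 0.24). It had 5989 and 3458 scaled reads in irradiated cells and 7235 and 5991 at day 0. Its irradiated replicate 1 thus lay close to day 0 replicate 2, and the low value was in the incomplete irradiated replicate 2. Mcm3 was at -0.36 (SE 0.17), while 3 of 12 members were higher.

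Other single knockouts at the ends of the range had wide intervals. Mcm4 was highest in irradiated against day 0 cells, at 0.14 (SE 0.21). It took the other sign without irradiated replicate 2, its lowest value over the alternatives being -0.01. Gins2 was lowest at day 14 against day 0, at -0.26 (SE 0.24), with 5162 and 5901 scaled reads at day 14 and 7235 and 5991 at day 0. Gins4 was highest there, at 0.34 (SE 0.22), with 10783 and 6291 at day 14 and 7174 and 6295 at day 0, so that only day 14 replicate 1 stood out, and it was -0.10 without that library. Rpa3 was highest in irradiated against day 14 cells, at 0.08 (SE 0.19), and at -0.07 without day 14 replicate 1.

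The 2 to 4 constructs that aim both guides at 1 gene held few reads, 488 (Mcm4) to 7833 (Mcm3) over all libraries. Several were at 0 in an incomplete library: Mcm4 had 92 and 0 reads in irradiated cells, 0 and 52 at day 14 and 134 and 210 at day 0, and Mcm2 had 75 and 1 in irradiated cells, 0 and 135 at day 14 and 253 and 194 at day 0. The biological coefficient of variation between replicates was 0.92. edgeR called 0 of 12 members and 0% of the 457 genes tested in each comparison, and DESeq2 0 of 12 and 0%. At an unadjusted p under 0.05 there were 0 members, against 0.656% of all genes in irradiated against day 0 cells and 0.438% in each of the other comparisons.

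The lowest and highest members among these constructs had wide errors. In irradiated against day 0 cells Mcm2 was at -2.27 (SE 2.73) and Mcm6 at 1.88 (SE 1.05). Mcm6 had 126 and 656 reads in irradiated cells, 87 and 105 at day 14 and 100 and 137 at day 0, with the high value in irradiated replicate 2 alone. At day 14 against day 0 Mcm4 was at -2.21 (SE 3.01) and Mcm7 at 1.43 (SE 0.84). In irradiated against day 14 cells Mcm7 was at -1.29 (SE 0.84), or 0.33 without both incomplete libraries, and Rpa3, with 114 and 218 reads in irradiated cells and 0 and 82 at day 14, at 1.70 (SE 2.26). Mcm3, the deepest of the 12, had an interval of -1.16 to 0.77 around -0.19 in irradiated against day 0 cells. The reads of these constructs do not tell changes within that interval apart.

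Pairs of 2 member genes were set against the additive effects of both genes. These effects were medians over each gene's pairs with other genes in each library, without the non-targeting constructs. A negative value means that the pair, relative to that expectation, was lower in the first group named than in the second. All 66 pairs of the 12 genes were tested, among 105111 gene pairs. edgeR called 0 of 66 and 0% of all pairs in each comparison. At an unadjusted p under 0.05 there were 0 of 66, against 0.354% of all pairs in irradiated against day 0 cells, 0.43% at day 14 against day 0 and 0.833% in irradiated against day 14 cells. limma-trend called 0 of 66, against 0.000951% of all pairs in each irradiated comparison and 0% at day 14. The median interaction of the 66 was -0.19, 0.02 and -0.04 in those 3 comparisons, beside 0.02, 0.01 and 0.0034 for all pairs. Without the incomplete irradiated replicate 2 the first was 0.0084, with 32 of 66 lower.

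Pairs of smallest p in irradiated against day 0 cells were Mcm6 with Rfc1 at -1.10 (SE 0.57), Gins2 with Rpa1 at 0.83 (SE 0.43) and Gins2 with Gins4 at -1.06 (SE 0.56). Mcm6 with Rfc1 had 357 and 181 reads in irradiated cells, 237 and 405 at day 14 and 871 and 749 at day 0, and Gins2 with Gins4 had 283 and 161 in irradiated cells, 352 and 351 at day 14 and 757 and 533 at day 0. These are unscaled reads, and the day 14 interaction of Gins2 with Gins4 was -0.0098 (SE 0.55). That of Mcm6 with Rfc1 was -0.64 (SE 0.56) at day 14 against day 0, and -0.46 (SE 0.56) in irradiated against day 14 cells. Without irradiated replicate 2 the irradiated interactions were -0.65 for Mcm6 with Rfc1 and -0.70 for Gins2 with Gins4. Gins2 with Rpa1 had 816 and 1919 in irradiated cells and 802 and 1005 at day 0, so that irradiated replicate 2 alone was high, and the interaction was 0.28 without it.

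At day 14 against day 0 they were Mcm4 with Rfc1 at 1.33 (SE 0.58), Mcm2 with Rfc1 at -0.76 (SE 0.42) and Mcm3 with Rpa1 at 0.52 (SE 0.31). Mcm4 with Rfc1 had 1422 and 539 reads at day 14 and 624 and 693 at day 0, with the high value in the incomplete day 14 replicate 1, and without that library it was at 0.28 and Mcm3 with Rpa1 at 0.12. Between irradiated and day 14 cells they were Mcm5 with Mcm7 at -1.41 (SE 0.65), Mcm2 with Mcm6 at -1.59 (SE 0.76) and Gins2 with Gins4 at -1.05 (SE 0.56). Mcm5 with Mcm7 had 489 and 366 reads in irradiated cells and 1246 and 426 at day 14, and Mcm2 with Mcm6 had 289 and 313 in irradiated cells and 1004 and 270 at day 14, with day 14 replicate 1 the high library in both. Without it they were at -0.21 and 0.03.

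Of 57 listed symbols of other genes of DNA replication, from origin licensing to lagging-strand processing, 28 are in the library. Orc1 to Orc6, Cdc6 and Cdt1 are not among them. As gene sums, 0 of the 28 passed the edgeR test in any comparison, against 0% of all genes. At an unadjusted p under 0.05 there were 2 of 28 in each comparison with day 0, against 3.92% of all, and 1 in irradiated against day 14 cells, against 2.61% of all. Irradiated cells stood lower than day 0 for 15 of 28, and the changes ran from -0.34 (Pola1, which encodes the catalytic part of DNA polymerase alpha) to 0.22 (Pcna, the clamp that RFC loads), around a median of -0.01. At day 14 against day 0, 15 were lower too, from -0.26 (Pola1) to 0.24 (Pcna). Between irradiated and day 14 cells they ran from -0.07 (Pola1) to 0.09 (Topbp1, an activator of ATR). Cdc45, which completes the active helicase with MCM2-7 and GINS, was at -0.01 (SE 0.05), -0.06 (SE 0.05) and 0.04 (SE 0.05) in these 3 comparisons.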

How the data were processed

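Raw read counts per guide pair were deposited by the authors, per the file headers, as 6 libraries in 2 combined tables. Their own single-library tables differed from these in 0 pairs. HISAT2 2.1.0 and hg38 stand in the submitters' processing notes without a role; the assignment of reads to pairs was not stated in those notes or the headers. Another 2 columns matched no sample and were not used. Depth was 61185707 to 86587125 reads per library, and each group had 2 libraries, for which the smallest exact two-sided permutation p of a single value is 0.333.

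Pairs were split into guides, and each guide was summed over partners, by position and by gene. Guide and gene sums needed a mean of at least 2000 reads, other sums at least 20. Guide levels were scaled with TMM within their position. All features were fitted together in 3 groups with edgeR 4.0.16 (quasi-likelihood test, R 4.3.3), and p-values were adjusted over all features by Benjamini-Hochberg at a threshold of 0.05. Gene pairs were fitted against the additive effects of both genes over their gene partners, with a prior count of 2 and 25 iterations. Alternatives used DESeq2 1.42.0, limma 3.58.1, other scalings and left-out libraries. Tables were made with Python 3.11.15, pandas 2.3.3 and numpy 2.4.6. The fits were also run on simulated counts with known changes, drawn with a common spread for each kind of sum. That simulation held neither the missing constructs of irradiated replicate 2 and day 14 replicate 1 nor the position 2 shift of day 0 replicate 1. It therefore cannot show how the fits deal with them.

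The text names every member gene sum, the 2 guides of smallest p per complex and comparison with the other guides of their genes, the lowest and highest single and same-gene knockouts, and the 3 pairs of smallest p. Members and lists were chosen with earlier results of these data known. The replicate numbers were not taken as pairs: deviations of same-numbered guide sums correlated at -0.579 between irradiated and day 14, 0.107 between irradiated and day 0 and -0.045 between day 14 and day 0.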

Additional observations from a re-analysis of the deposited data

How the results depend on the processing

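Of the alternative values of named changes, 1025 lay within 1 SE of the reported change on the same side of the threshold, 149 lay further away and 17 newly passed the threshold. Of the 81 named changes, 38 kept their sign under every alternative and 43 took the other sign under at least 1, of which 18 did so in the constructs with reads in all 6 libraries. For 3 of these changes the 95% interval of the reported value lay on 1 side of 0. DESeq2 called 2 member guides in irradiated against day 0 cells and 2 at day 14 against day 0, where edgeR called 0. Leaving out 1 library at a time gave 0 to 4 called member guides in irradiated against day 0 cells and 0 to 5 at day 14 against day 0, and 0 to 3 and 0 to 4 called member genes. The highest counts came without day 0 replicate 2, where 311 and 313 of all guides and 154 and 164 of all genes were called, against 0 with it. These 3 were turned by restricting guides to constructs with reads in all 6 libraries, namely Rpa2_sg3, to 0.15 in irradiated and 0.31 in day 14 cells against day 0, and Rfc1_sg1, to -0.14 at day 14 against day 0. The same restriction, which also removes constructs without reads in a later library, moved Mcm3_sg3 to -0.61 in irradiated and -0.63 in day 14 cells. The cause was not tested.

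With the replicate number as a replicate block, edgeR called 0 member guides, and 1, 0 and 1 of all guides in irradiated against day 0, day 14 against day 0 and irradiated against day 14 cells. Gins2_sg3 was at -0.50 in irradiated against day 0 cells (edgeR adjusted p = 0.796). The block changed no call of a member. With 2 libraries a group, and roughly 1 in 2 constructs without reads in irradiated replicate 2 and day 14 replicate 1, sums of few constructs limited what could be detected most: the biological coefficient of variation was 0.0984 for guides, 0.0597 for genes, 0.145 for constructs with a non-targeting partner, 0.57 for gene pairs and 0.92 for same-gene constructs.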
